A study of Mus musculus with 24 samples.

Results

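MicroRNAs in the extracellular vesicles (EVs) of BV2 cells treated with lipopolysaccharide (LPS) were compared with those of the LPS-treated cells themselves. The comparison took the 3 EV libraries and the 3 cell libraries of the LPS condition, 6 of 24 libraries in the series, and joined their tables by precursor name. BV2 is an immortalised mouse microglial line, and the cultures had received LPS at 100 ng/mL for 72 h, with no other agent named. EV RNA came from 20 µL of an EV fraction and was eluted in 20 µL, cell RNA came from pellets and was eluted in 40 µL, and both had 18 PCR cycles. The other 18 libraries were EVs and cells of control, IL-10 and TGF-β cultures, 3 of each. No genotype or passage is given, and no label tells whether libraries of the same group stem from separate cultures, so a p-value here covers the spread among these libraries, which may be technical only.

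A microRNA is cut from a hairpin precursor and then guides Argonaute proteins to messenger RNAs that match its seed, bases 2 to 8. Cells release EVs that carry small RNAs, fragments of structural RNAs such as ribosomal and small nucleolar RNA among them, and the mixture need not mirror the cytoplasm. LPS engages Toll-like receptor 4 on microglia and drives NF-kB, and the miR-146 pair and miR-155 are the best-known microRNAs induced by that route.

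Mature sequences of the precursors on which the comparison turned are shown from RefSeq (GRCm38.p6), with the seed in capitals. The deposited counts are per precursor and do not separate arms, so a sequence identifies the precursor and is not a read that was counted. Those that took larger shares of the EV libraries are given first, and no pair among them shared a seed.
mir-6236: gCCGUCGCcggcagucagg (chr9:110281353-110281371, plus strand)
mir-6238: uUAUUAGUcaguggaggaaaug (chr7:53891796-53891817, minus strand)
mir-6240: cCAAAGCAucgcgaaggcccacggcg (chr5:114851973-114851998, plus strand)
mir-664, 5p arm: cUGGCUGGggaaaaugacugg (chr1:185242975-185242995, plus strand)
mir-5126: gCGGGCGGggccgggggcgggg (chr1:84695890-84695911, plus strand)
mir-1896: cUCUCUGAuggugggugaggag (chr13:21445209-21445230, plus strand)
The following took larger shares of the cell libraries. They include 3 sets with a shared seed, namely let-7a, let-7g and miR-98, miR-146a with miR-146b, and miR-221 with miR-222.
let-7a-1, 5p arm: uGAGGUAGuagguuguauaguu (chr13:48538239-48538260, minus strand)
let-7g, 5p arm: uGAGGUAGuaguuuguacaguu (chr9:106178846-106178867, plus strand)
mir-98, 5p arm: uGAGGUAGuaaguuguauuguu (chrX:151913229-151913250, plus strand)
mir-146a, 5p arm: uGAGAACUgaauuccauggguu (chr11:43374435-43374456, minus strand)
mir-146b, 5p arm: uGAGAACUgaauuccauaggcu (chr19:46342790-46342811, plus strand)
mir-221, 3p arm: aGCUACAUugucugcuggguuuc (chrX:19146307-19146329, minus strand)
mir-222, 3p arm: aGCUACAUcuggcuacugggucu (chrX:19146901-19146923, minus strand)
mir-3535: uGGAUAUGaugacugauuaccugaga (chr1:86352062-86352087, minus strand)
mir-5121: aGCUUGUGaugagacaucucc (chr7:45126925-45126945, minus strand)
Exact matches to other GENCODE M21 transcripts were present for several of them. The mir-664 sequences matched the small nucleolar RNA Snora36b, mir-3535 matched the small nucleolar RNA Gm24148, and mir-5121 matched Snord33 and an Rpl13a transcript that retains an intron. mir-1896 matched the non-coding transcript 4930470G03Rik. mir-320, mir-466h and mir-5099 are named only.

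The LPS EV libraries held 23943, 28727 and 25867 counts and the LPS cell libraries 233757, 185400 and 206396, a mean 7.97 times that of the EVs. Of 1187 listed precursors, 628 had a count in at least 1 of the 6 libraries, 442 in the EVs, 518 in the cells and 332 in both. With 0 counts, a precursor could still have a share as high as 0.0104% to 0.0125% of an EV library or 0.00128% to 0.00162% of a cell library. These limits and the intervals below cover counting error only, because copies made by PCR were counted like molecules. Across precursors, Spearman's rho between 2 libraries was 0.890 to 0.915 among the cells, 0.461 to 0.581 among the EVs and 0.492 to 0.589 between an EV and a cell library. The range among EV libraries thus overlapped that between compartments, a description in which low counts weigh and precursors are not replicates.

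The EV libraries were dominated by a few precursors that were minor in the cells. mir-6236, which is in the list of precursors that overlap structural RNA genes, took 65.5%, 56.2% and 49.9% of the 3 EV libraries. In the cell libraries it took 1.25%, 1.63% and 1.50%. The groups lay far apart, at 57.2 ± 7.82% in EVs and 1.46 ± 0.192% in cells (SD, n = 3 each). mir-6238 followed with 6.65%, 12.8% and 8.96% of the EV counts against 0.0719%, 0.0955% and 0.134% of the cell counts. mir-6240, of the same list as mir-6236, took 4.24%, 3.26% and 4.66% against 0.376%, 0.524% and 0.528%. These 3 precursors together made up 70.7 ± 6.56% of the EV libraries and 2.04 ± 0.296% of the cell libraries. mir-664, which matches a small nucleolar RNA, took 1.73 ± 0.290% of EV counts and 0.0821 ± 0.0107% of cell counts. EV library 1 had the highest mir-6236 share and EV library 3 the lowest, and no EV library overlapped a cell library for any of these 4. Of the 280 precursors that passed a filter on low counts, 33 (11.8%) had EV shares wholly above the cell shares.

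The cell libraries were led by mir-5099 and let-7. mir-5099 took 21.8%, 22.5% and 19.4% of the cell counts, and 0.831%, 0.658% and 1.51% of the EV counts. The 12 precursors of the let-7 family, whose mature products restrain growth and differentiation switches in many tissues, took 38.9 ± 1.14% of the cells and 10.4 ± 2.43% of the EVs, where the 3 libraries had 7.64%, 11.2% and 12.3%. mir-3535 took 5.49 ± 0.632% of the cells and 0.782 ± 0.414% of the EVs. All 3 were lower in every EV library than in any cell library, as were 132 of the 280 tested precursors (47.1%). Among 32 share comparisons the smallest two-sided exact permutation p that 3 against 3 libraries allow is 0.1. mir-5099, let-7 and mir-3535 each reached it, with 0.123 after adjustment by the Benjamini-Hochberg method, so none passed 0.05 by this test. Of the counts of a library, 50% came from 1, 1 and 2 precursors in the EVs and from 5, 5 and 6 in the cells. Of the 20 most abundant precursors of each compartment, 12 were shared, 60% of either list.

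**Figure D1:**
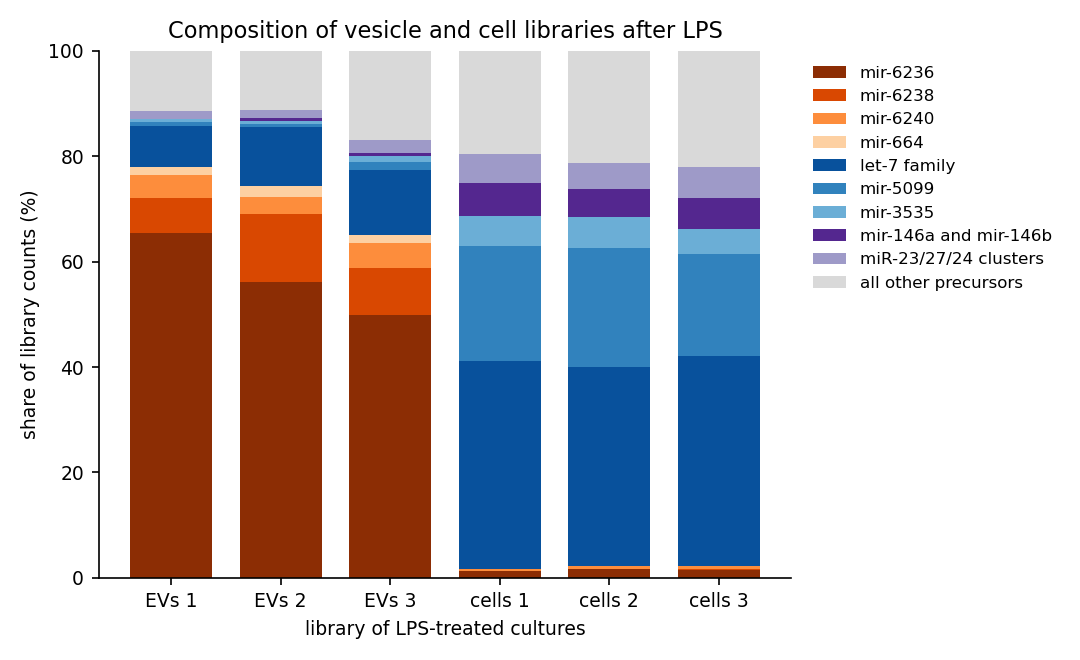
Stacked bars give the share of counts (%, y axis) of leading precursors and families in each of the 3 LPS EV and 3 LPS cell libraries (x axis). mir-6236 filled 49.9% to 65.5% of the EV bars and 1.25% to 1.63% of the cell bars, where let-7 and mir-5099 took the most room.

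Because the EV libraries were far shallower, detection was compared at matched depth. Matching depth does not remove the room that mir-6236 and mir-6240 take among the counts drawn. Drawn down to 15071 counts, the depth of the shallowest library of the series, the EV libraries were expected to show 226, 230 and 272 precursors with at least 1 count, and the cell libraries 240, 243 and 246. The group means were 242.7 ± 25.6 and 243.1 ± 3.36 (two-sided exact permutation p = 1), whereas at full depth the EV libraries showed 258, 285 and 312 and the cell libraries 406, 408 and 402. With at least 5 counts, the EV libraries showed 92.0, 77.0 and 121.9 precursors and the cell libraries 129.4, 129.5 and 134.1. At that threshold every EV library was below every cell library (96.9 ± 22.9 against 131.0 ± 2.67, exact permutation p = 0.1, the smallest possible). The order turned when mir-6236 and mir-6240 were left out before drawing to 1825 counts, with 49.9, 40.3 and 51.4 precursors in EVs at 5 counts or more and 38.4, 38.1 and 38.6 in cells. That depth was the remainder of IL-10 EV library 2, while the LPS EV libraries kept 7254, 11641 and 11753 counts. At greater depth 1 EV curve crossed below the cell curves. The leading precursors of the cells, let-7 and mir-5099, were not left out.

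**Figure D2:**
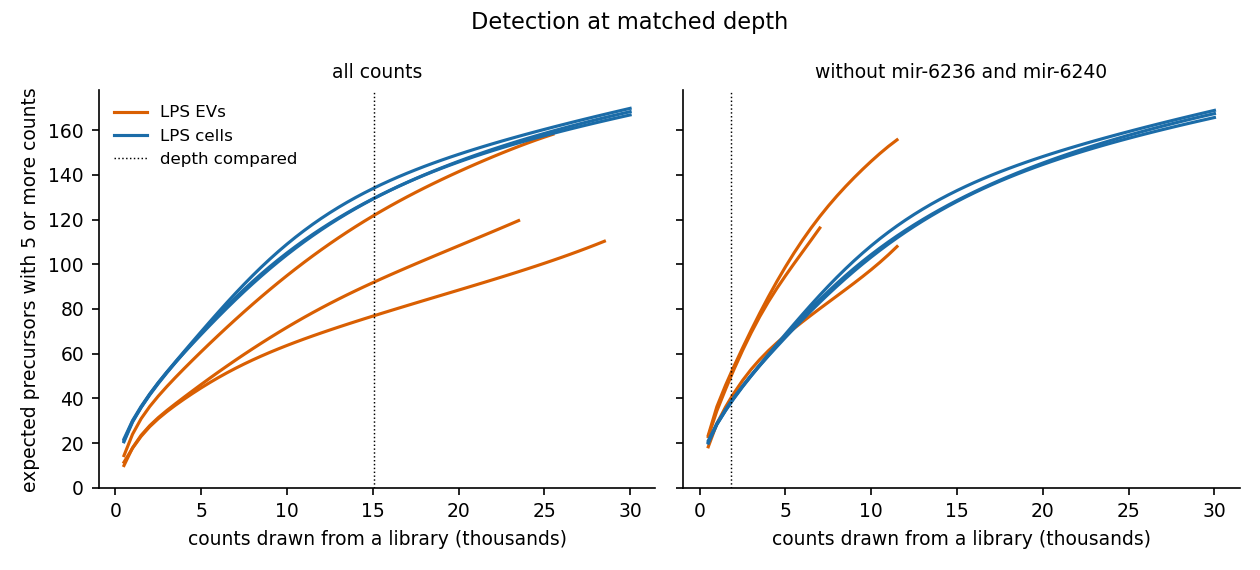
Expected number of precursors with 5 or more counts (y axis) against the number of counts drawn from a library (x axis, in units of 1000 counts), for 3 LPS EV and 3 LPS cell libraries, with all counts (left) and without mir-6236 and mir-6240 (right). Dotted lines mark 15071 and 1825 counts. EV curves lay below the cell curves at the left line and above them at the right line, and 1 EV curve crossed below them at greater depth on the right.

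Across all precursors that passed the filter on low counts, edgeR's quasi-likelihood test called 86 of 280 (30.7%) at a Benjamini-Hochberg adjusted p under 0.05, 59 higher in EVs (21.1%) and 27 lower (9.64%). The log2 differences depend on how libraries are scaled. With edgeR's TMM factors, used unless stated, the median over the 280 was 0.00, with DESeq2's size factors it was 0.31 and with library totals alone it was -1.14. With DESeq2's factors 70 precursors were called higher and 16 lower, and with library totals 34 and 118. Under all 3 scalings together, 50 precursors were called (17.9%), 34 higher (12.1%) and 16 lower (5.71%). A log2 difference below is thus relative to the bulk of the tested precursors in its scaling, and not an amount per vesicle or per cell. With the cell libraries thinned to the mean EV depth, 39 of 56 called precursors that could still be tested kept their call, and let-7g, mir-98, mir-222, mir-30e, mir-146b and mir-677 were among those that lost it.

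**Figure D3:**
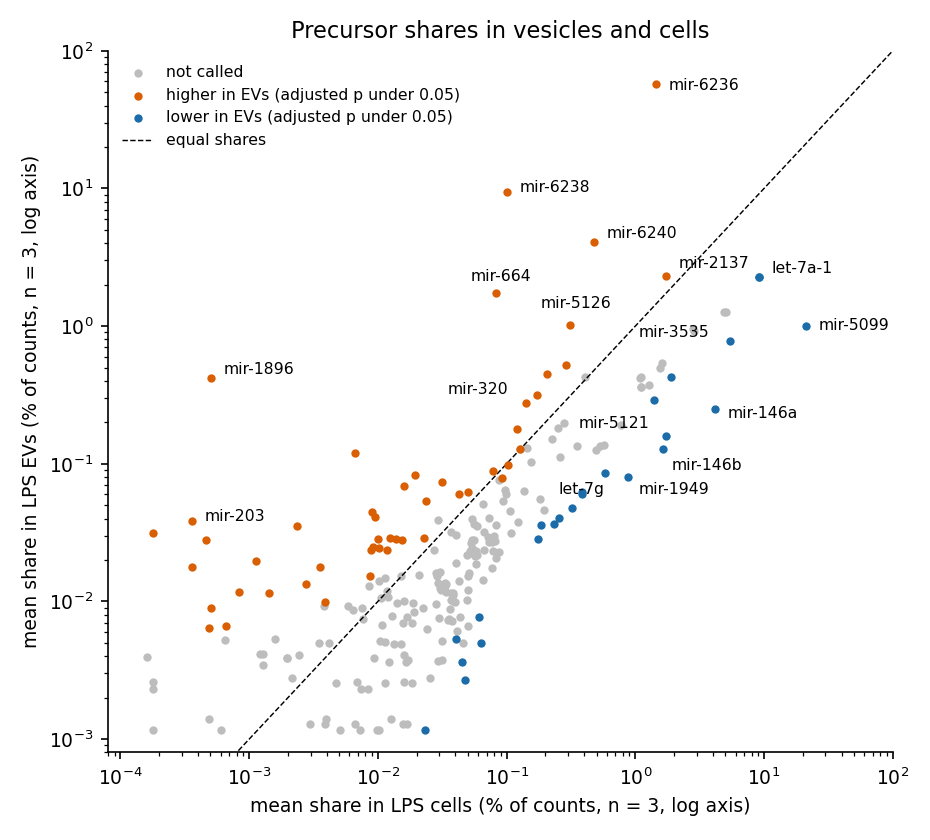
Each point is 1 tested precursor with counts in both compartments, with its mean share in 3 LPS cell libraries (x axis, % of counts, log) and in 3 LPS EV libraries (y axis, %, log). Orange points were called higher in EVs and blue points lower. mir-6236 and mir-6238 stood farthest above the line of equal shares among the abundant precursors, and mir-146a and mir-5099 stood well below it.

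Precursors linked to structural RNAs were found on both sides, and the balance depended on how they were chosen. By exact match of a mature sequence to a small structural RNA, 2 of the 50 precursors higher in EVs with a sequence (4%) and 5 of the 24 lower ones (20.8%) had a match, against 6.83% of all tested with a sequence. The curated list leaned the other way, and its mir-6236, mir-6240 and mir-1983 had no such match. The search had no class for nuclear tRNA and took rRNA only as far as GENCODE M21 lists it. A missing match therefore does not show that a precursor lacks structural RNA sequence. The 5 lower ones with a match include the copies mir-3084-1 and mir-3084-2. Of the 7 tested members of the list overlapping rRNA, tRNA or snoRNA genes, 4 were called higher in EVs and 0 lower. Over all tested, 21.1% were called higher and 9.64% lower. The median log2 difference of the 7 was 2.45, against 0.00 for all tested. mir-6236 was higher by a log2 of 6.60 ± 0.40 (SE, edgeR adjusted p = 1.18e-12), mir-6240 by 4.32 ± 0.38 (adjusted p = 2.00e-09), mir-664 by 5.74 ± 0.63 (adjusted p = 8.16e-08) and mir-1983 by 2.45 ± 0.62 (adjusted p = 0.00336). The call of mir-1983 was lost with library totals and without LPS EV library 2 (1.85, adjusted p = 0.0669). mir-1839, which matches a small Cajal body RNA, was not called at 0.61 ± 0.42 (adjusted p = 0.263). mir-7650, the other precursor with a match that was higher (2.67 ± 0.73, edgeR adjusted p = 0.00689), was not called under all 3 scalings. In the other direction, mir-3535, mir-5121, mir-677 and the copies mir-3084-1 and mir-3084-2, whose sequences match small nucleolar RNAs, were lower under all 3 scalings. The call of mir-3084-1 (-1.45 ± 0.45, edgeR adjusted p = 0.0152) was lost without LPS EV library 3, LPS cell library 1 or LPS cell library 2 (adjusted p = 0.0672 to 0.152). mir-7650 and mir-3084-2 were named after their values were seen and have no value with a library left out. mir-5121 had 32, 22 and 69 counts in EVs and 3235, 3195 and 4272 in cells, and its log2 difference was -2.33 ± 0.33 (edgeR adjusted p = 5.07e-06). The log2 difference was -1.68 ± 0.37 for mir-3535 (edgeR adjusted p = 0.00137) and -1.11 ± 0.31 for mir-677 (adjusted p = 0.00769), and the call of mir-677 was lost without LPS cell library 2 (-0.66, adjusted p = 0.152).

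Sequence composition was described for the called groups, without a test. Among tested precursors outside the Sfmbt2 repeats, 50 of 54 called higher in EVs and 24 of 26 called lower had a mature sequence. The median GC content was 52.4% for those higher, 44.4% for those lower and 50.0% over 205 tested precursors with a sequence. Numbered copies, such as mir-3084-1 and mir-3084-2 among the lower (44.4% each), counted separately here and in the motif counts below. The precursors with the largest EV shares lay on both sides of these medians, with mir-6236 at 78.9%, mir-6238 at 36.4%, mir-6240 at 69.2% and mir-2137 at 85.7%, while mir-3535, lower in EVs, was at 38.5%. Over the 205, Spearman's rho between GC content and the log2 difference was 0.290, and 0.299 with library totals; the points share libraries, so no p is given. The tetramers GGAG and CCCU, described in EV microRNAs of human T cells, and GGCU, described in mouse hepatocytes, were searched on the mature strand. GGAG was present in 15 of the 50 higher (30.0%) and in 1 of the 24 lower (4.17%), against 17.6% of all tested and 22.5% of all listed precursors with a sequence. CCCU was present in 12.0% of the higher and 4.17% of the lower (16.1% of tested, 18.2% of listed) and GGCU in 20.0% and 8.33% (20.5% of tested, 20.6% of listed). These motifs overlap by at most 1 base, both arms counted where both are listed, and a match describes letters only.

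Of the NF-kB-induced precursors, mir-146a and mir-146b were abundant in the cells and lower in the EVs. The list of 11 such precursors, 4 of them at 0 in the LPS cells, took 6.69%, 5.83% and 6.48% of the cell counts, mostly from these 2, and 0.196%, 0.620% and 0.715% of the EV counts. Of its 4 tested members 2 were called lower and 0 higher, against 9.64% and 21.1% of all tested. Both held under all 3 scalings, where 5.71% of all tested were lower. The median log2 difference of the 4 was -2.11, against 0.00 for all tested. mir-146a, which restrains the Toll-like receptor pathway through Irak1 and Traf6, had 10338, 7072 and 8703 counts in the cells and 14, 103 and 85 in the EVs. It made up 4.15 ± 0.309% of cell counts and 0.249 ± 0.165% of EV counts, a log2 difference of -2.77 ± 0.71 (edgeR adjusted p = 0.00369). The groups did not overlap, and EV library 1 was the lowest. EV shares lay below all cell shares for 47.1% of all tested precursors. mir-146b, with the same seed, had 4096, 2789 and 3510 counts in cells and 3, 58 and 44 in EVs (log2 -2.38 ± 0.68, edgeR adjusted p = 0.00868). Its call was lost without LPS cell library 1 (adjusted p = 0.0575) or 2 (adjusted p = 0.0556) and with the Wald test of DESeq2.

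Of the other members of that list, mir-155 and mir-21a passed the filter on low counts and neither was called with TMM. mir-155, processed from the Mir155hg transcript of activated macrophages, had 79, 60 and 57 counts in cells and 0, 1 and 2 in EVs, and its log2 difference of -1.84 ± 0.75 did not pass (edgeR adjusted p = 0.0690). From the summed counts its cell share was 8.20 times its EV share, with a 95% counting interval of 2.77 to 40.1. mir-21a, a widespread microRNA of activated and growing cells, had 1119, 875 and 1092 counts in cells and 30, 13 and 54 in EVs (log2 -0.85 ± 0.36, edgeR adjusted p = 0.0702). With library totals both were called lower. Both had lower shares in each EV library than in any cell library, as had 132 of the 280 tested (47.1%). mir-132 had 8, 4 and 8 counts in cells and 0 in each EV library, where only 2.51 counts would be expected in all at the cell share, so a lower share in EVs was not detectable at this depth.

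Myeloid precursors differed among themselves. Of 7 tested members of the microglia and myeloid list, 2 were called lower, mir-146a and mir-223, and 0 higher, against 9.64% lower and 21.1% higher over all tested, and the median log2 difference was -1.84. mir-142a, specific to blood cells, had 47, 30 and 76 counts in EVs and 647, 465 and 627 in cells; its log2 difference was 0.68 ± 0.32 (edgeR adjusted p = 0.105), it was called higher with DESeq2's factors (1.00, adjusted p = 0.0202), and its sign was negative with library totals (-0.49). Its shares overlapped between the groups. mir-223, a regulator of granulocyte and macrophage maturation, had 33, 23 and 25 counts in cells and 0 in each EV library. With 10.2 EV counts expected at the cell share, it was at least 3.39-fold lower in EVs against a floor of 3 counts over the group. It was called with TMM (adjusted p = 0.0404) but lost with DESeq2's factors and without any 1 of the EV libraries (adjusted p = 0.0600 to 0.126). mir-342, intronic in Evl, had 2, 0 and 1 counts in EVs and 34, 30 and 36 in cells (log2 -0.85 ± 0.92, edgeR adjusted p = 0.492), a cell share 4.18 times the EV share with a counting interval of 1.39 to 20.6.

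Within let-7, let-7g and mir-98 differed under every scaling. let-7g had 9, 23 and 36 counts in EVs and 1437, 977 and 1224 in cells, a log2 difference of -1.56 ± 0.38 (edgeR adjusted p = 0.00244). mir-98, on the X chromosome, had 8, 7 and 7 counts in EVs and 432, 268 and 401 in cells (log2 -1.38 ± 0.35, edgeR adjusted p = 0.00352). These 2 of 12 were called lower under all 3 scalings, although the call of mir-98 was lost without LPS cell library 1 (-1.08, adjusted p = 0.0536). With TMM 5 of the 12 were called lower and 0 higher, against 9.64% and 21.1% of all tested, with a family median of -0.69. Under all 3 scalings 5.71% of all tested were called lower. let-7a-1, the most abundant, had 401, 737 and 664 counts in EVs and 21814, 16462 and 19450 in cells, and its log2 difference of -0.73 ± 0.27 (edgeR adjusted p = 0.0416) was not called with DESeq2's factors, nor without EV library 3 or any 1 cell library (-0.40 without cell library 2). let-7a-2 had 403, 735 and 661 EV counts and let-7f-2 236, 378 and 384, near those of let-7a-1 and of let-7f-1 (242, 394 and 365), so numbered copies cannot be taken as separate measurements. let-7i was not called at -0.53 ± 0.32 (adjusted p = 0.204), nor was let-7c-2 at -0.36 ± 0.38 (adjusted p = 0.478), and with library totals both were called lower (-1.73 and -1.62).

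The counts of calls in the remaining families stand against 21.1% called higher and 9.64% lower over all tested. mir-222, which with mir-221 targets the cell cycle inhibitor p27, was lower under all 3 scalings, with 11, 10 and 16 counts in EVs and 736, 564 and 713 in cells (log2 -1.56 ± 0.40, edgeR adjusted p = 0.0036). mir-221 was lower with TMM (-1.22 ± 0.41, adjusted p = 0.0227) and not with DESeq2's factors, nor without LPS cell library 1 (-0.93) or 2 (-0.87). Among 6 precursors of the miR-23/27/24 clusters 0 were called, with a median of -0.41, although their summed share was 1.80 ± 0.591% in EVs and 5.49 ± 0.476% in cells. In the miR-17-92 cluster and its paralogs, growth-promoting clusters under Myc, 3 of 11 tested were called higher and 2 lower, and 0 of these held under all 3 scalings. mir-92a-1 was lower (-1.47 ± 0.49, adjusted p = 0.0227) and mir-19b-2 higher (1.24 ± 0.45, adjusted p = 0.0397, 0.03 with library totals). The call of mir-92a-1 was lost without EV library 3 (-1.33), cell library 1 (-1.20) or cell library 2 (-1.08), and that of mir-19b-2 without any library but cell library 2 (0.91 to 1.53). Of 5 tested miR-30 precursors 2 were lower, mir-30e under all 3 scalings with 1, 2 and 1 counts in EVs against 147, 112 and 140 in cells (log2 -2.42 ± 0.81, adjusted p = 0.0231). That call was lost without EV library 3 (-2.06), cell library 1 (-2.18) or cell library 2 (-2.12). mir-29a was higher with TMM by 1.11 ± 0.35 (adjusted p = 0.0182) and had the opposite sign with library totals (-0.084), its value without EV library 1 was 0.39, its call was also lost without EV library 3 (1.02) or cell library 3 (0.88), and mir-29b-1 was at -0.21 ± 0.64. Of 4 tested miR-15/16 precursors and of the 2 tested precursors of the mir-182 cluster 0 were called, nor were any of the 2, 2 and 3 tested in the miR-99/125 clusters, the miR-181 family and the X-linked mir-322 cluster.

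Of 9 tested precursors often reported as EV cargo, 1 was called higher and 3 lower (mir-146a, mir-92a-1 and mir-223), against 21.1% and 9.64% over all tested, with a median of -1.33, and their summed share was 1.32 ± 0.533% in EVs and 6.49 ± 0.280% in cells. The member called higher was mir-320, whose hairpin bypasses Drosha. It had 32, 97 and 94 counts in EVs and 234, 311 and 328 in cells, or 0.278 ± 0.126% and 0.142 ± 0.0368%. Its log2 difference was 2.20 ± 0.35 (edgeR adjusted p = 1.91e-05), but EV library 1 overlapped the cell shares. let-7b was not called at -0.16 ± 0.39 (adjusted p = 0.798).

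**Figure D4:**
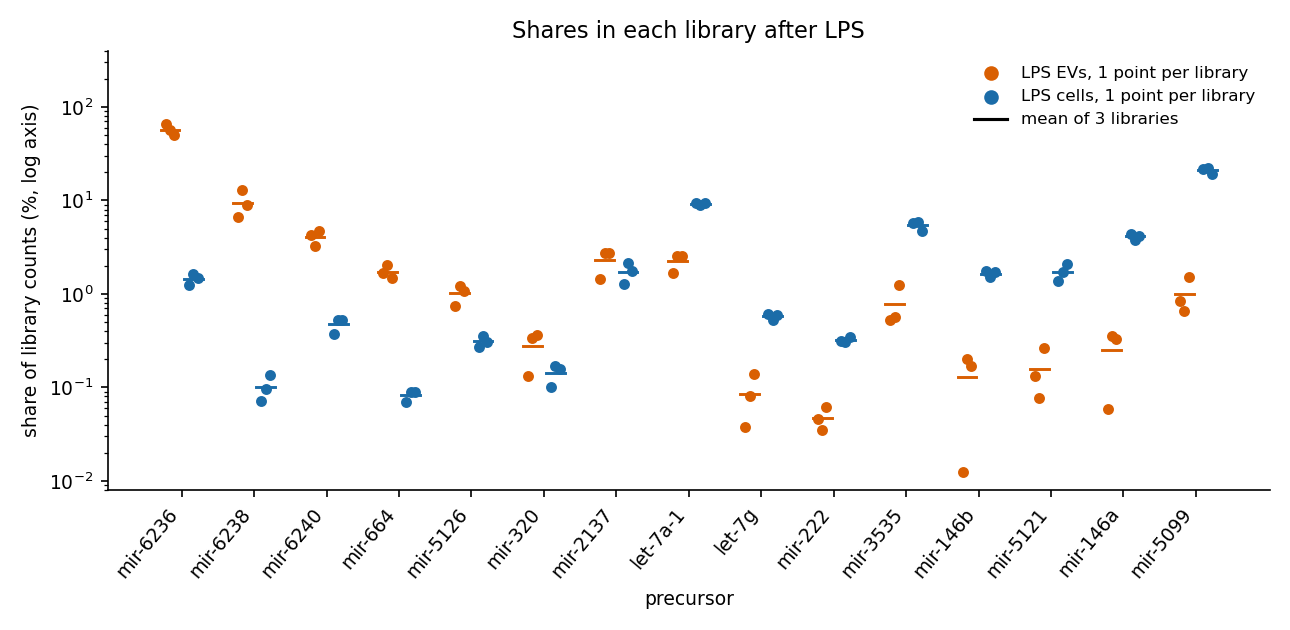
Shares of 15 named precursors (x axis) in each of 3 LPS EV libraries (orange) and 3 LPS cell libraries (blue), as % of counts on a log axis, with bars at the means. The first 5 had all EV points above the cell points, the last 8 had all EV points below, and mir-320 and mir-2137 overlapped. Of all 280 tested precursors, 11.8% had all EV shares above the cell shares and 47.1% had all below.

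Several precursors had few or no counts in the far deeper cell libraries. mir-1896 had 180, 29 and 104 counts in EVs and 0, 1 and 2 in cells (edgeR adjusted p = 6.26e-10), an EV share 831 times the cell share with a 95% counting interval of 282 to 4051. mir-7000 had 23, 1 and 13 counts in EVs and 0 in each cell library, so it was at least 98.2-fold higher in EVs against a floor of 3 counts over the cell group. mir-3544 (9, 5 and 9 counts) and mir-5119 (12, 2 and 9) were likewise at least 61.1-fold higher, mir-6345 (5, 1 and 4) at least 26.6-fold and mir-8117 (3, 1 and 3) at least 18.6-fold. In all, 6 precursors had counts in each EV library and 0 in every cell library. mir-1903, whose sequence lies in an Nrp1 transcript, had 33, 39 and 22 counts in EVs and 26, 9 and 8 in cells (log2 5.47 ± 0.53, edgeR adjusted p = 7.7e-09). mir-5108, with 2, 6 and 17 EV counts and 1 cell count (199 times, counting interval 32.6 to 8176), and mir-378b, with 6, 6 and 20 against 26, 18 and 16, were also called higher. The reverse, counts in each cell library and 0 in every EV library, held for 51 precursors, but for 35 of them fewer than 3 EV counts would be expected at the cell share. Besides mir-223 these included mir-199a-1 and mir-199b, at least 3.31-fold and 3.14-fold lower in EVs, which have near-identical mature sequences. Their calls were lost with DESeq2's factors, with its Wald test and without any 1 of the EV libraries (adjusted p = 0.0740 to 0.148 for mir-199a-1 and 0.0707 to 0.143 for mir-199b). mir-1198 and mir-26b, whose shares were at least 2.64-fold and 2.47-fold lower against the same floor, were tested and not called (edgeR adjusted p = 0.0657 and 0.107).

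Markers of other cell types were few in either compartment. The muscle list summed to 0.0193% to 0.0244% of the EV libraries and 0% to 0.00162% of the cell libraries, and its mir-1a-1, a microRNA of heart and skeletal muscle, had 5, 5 and 4 EV counts and 0, 2 and 0 cell counts (55.8 times, counting interval 12.8 to 505). Of the 6 listed muscle precursors 2 were tested and 1 was called higher. Calls in this and the following lists stand against 21.1% higher and 9.64% lower over all tested. The epithelial list summed to 0.0209% to 0.0619% in EVs and 0.00216% to 0.00599% in cells, where mir-203, of skin, had 12, 2 and 15 EV counts and 0, 2 and 0 cell counts (115 times, counting interval 29.2 to 999); it was the only 1 of 7 that was tested, and it was called higher. The 36 precursors of the imprinted Dlk1-Dio3 cluster summed to 0.0167% to 0.0313% in EVs and up to 0.000856% in cells, with 26 at 0 in EVs and 0 tested. The serum, red cell and liver list was at 0.00835% in EV library 1 and at 0 in EV libraries 2 and 3. The neuronal list summed to 0% to 0.0313% in EVs and 0.0228% to 0.0278% in cells, with mir-124-2 at 0, 1 and 0 EV counts and 3, 1 and 0 cell counts. The endothelial and fibroblast list summed to 0.00418% to 0.0271% in EVs and 0.0392% to 0.0573% in cells, with 2 of 4 tested called lower, mir-199a-1 and mir-199b, calls that were lost without any 1 EV library. The part of such sources in the results was not tested.

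Whether the EV-to-cell difference after LPS departed from that in controls was tested as a difference of differences. In that test 17 of 280 precursors were called (6.07%), of which 7 had a higher EV-minus-cell difference after LPS (2.5%) and 10 a lower one (3.57%). Under all 3 scalings 9 held (3.21%), 3 higher (1.07%) and 6 lower (2.14%). The median over all tested was 0.38 with TMM, -0.12 with DESeq2's factors and 1.16 with library totals, and the calls split into 3 higher and 22 lower with DESeq2's factors, against 56 and 7 with library totals. Against the mean of the other 3 conditions, 66 were called (23.6%), 45 higher (16.1%) and 21 lower (7.5%). Of these 24 held under all 3 scalings (8.57%), 15 higher (5.36%) and 9 lower (3.21%). Here too the direction depended on the scaling. The calls split into 15 higher and 30 lower with DESeq2's factors, against 107 and 9 with library totals. The median over all tested was 0.73 with TMM, 0.14 with DESeq2's factors and 1.70 with library totals. Both tests use the same LPS libraries and the second includes the controls, so they are not independent.

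mir-146a showed a lower EV-minus-cell difference after LPS than in controls. In control cultures it took 0.120%, 0.0749% and 0.0166% of the EV counts and 0.109%, 0.106% and 0.120% of the cell counts, so the compartments overlapped, whereas after LPS the cell share was 4.15% and the EV share 0.249%. The log2 difference of differences was -4.26 ± 1.08 (edgeR adjusted p = 0.0174) against controls, with an adjusted p of 0.00212 against the mean of 3 conditions, called under all 3 scalings in both. The control EV libraries held 19, 12 and 3 counts of mir-146a, which limits the precision. For its differences of differences no value with a library left out is given, so their dependence on single libraries is not known. mir-5099 also had a lower difference after LPS, by -2.12 ± 0.41 against controls (edgeR adjusted p = 0.00346), with 12.7 ± 1.53% of control cells and 1.29 ± 0.596% of control EVs, but that call was lost with library totals and without control EV library 1 (-1.38, adjusted p = 0.0762).

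EVs and cells were less far apart in mir-6236 and mir-6240 after LPS than in controls. mir-6240 took 8.29%, 9.08% and 6.65% of the control EVs and 0.152%, 0.116% and 0.134% of the control cells, so every control EV library was above the LPS EVs and every control cell library below the LPS cells. Its difference of differences was -3.78 ± 0.49 (edgeR adjusted p = 1.07e-05). mir-6236 took 74.5 ± 1.17% of the control EVs and 0.796 ± 0.0186% of the control cells, and its value was -2.13 ± 0.45 (adjusted p = 0.00609). mir-6238 took 0.290%, 1.51% and 3.22% of the control EVs, below each LPS EV library, and 0.0498 ± 0.0122% of the control cells. Its difference of differences was not called (0.68 ± 0.87, edgeR adjusted p = 0.684).

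mir-5126 and mir-2137, both very rich in GC, were below the cells in control EVs and not below them after LPS. mir-5126 took 0.126%, 0.0562% and 0.0610% of the control EVs and 0.439%, 0.388% and 0.439% of the control cells. After LPS it took 0.748%, 1.23% and 1.07% of the EVs and 0.273%, 0.358% and 0.303% of the cells, with the groups apart in the opposite order. The difference of differences was 3.21 ± 0.69 (edgeR adjusted p = 0.00624) and held under all 3 scalings. Within LPS its EV-minus-cell difference was 3.00 ± 0.48 (adjusted p = 2.20e-05). mir-2137 took 1.45%, 2.73% and 2.72% of the LPS EVs and 1.29%, 2.12% and 1.78% of the LPS cells, which overlapped. In controls it took 0.189 ± 0.105% of EVs and 1.06 ± 0.145% of cells. Its difference of differences was 1.99 ± 0.56 (adjusted p = 0.0314), not called with DESeq2's factors, without LPS cell library 3 (1.56) or without any 1 control cell library (1.59 to 1.65).

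Of 59 tested Sfmbt2 intronic repeats, a large mouse cluster of near-identical copies, 5 were called higher in LPS EVs and 1 lower. Over all tested precursors, 21.1% were called higher and 9.64% lower. Under all 3 scalings 2 of the 59 were higher and 0 lower. Their median log2 difference was -0.23. mir-466d had 5, 20 and 25 counts in LPS EVs, 0, 1 and 0 in control EVs, 122, 92 and 99 in LPS cells and 233, 213 and 221 in control cells. Its difference of differences was 4.47 ± 1.04 (edgeR adjusted p = 0.00903) and was called under all 3 scalings, but it rests on 1 count in the control EVs; copies of the cluster may share reads. mir-466h had 3, 17 and 16 counts in LPS EVs and 0 in every control EV library, against 18, 16 and 22 in LPS cells and 43, 28 and 22 in control cells. Its fitted value depends on the count that edgeR adds, since the control EVs were at 0, and does not measure the size of the difference. mir-669c was not called in LPS EVs against cells (0.15 ± 0.59, adjusted p = 0.889). For mir-93, of the miR-106b-25 cluster within Mcm7, 15, 23 and 24 counts in LPS EVs stood against 1, 1 and 3 in control EVs, and its difference of differences of 2.38 ± 0.67 (edgeR adjusted p = 0.0314) was lost with DESeq2's factors, without LPS cell library 3 (1.74), without control EV library 1 (2.42) and without any 1 control cell library (1.86 to 2.00). The LPS EV libraries were deeper, at 23943 to 28727 counts against 15869 to 18047 in control EVs, and held less mir-6236; the part of either in these differences was not tested.

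**Figure D5:**
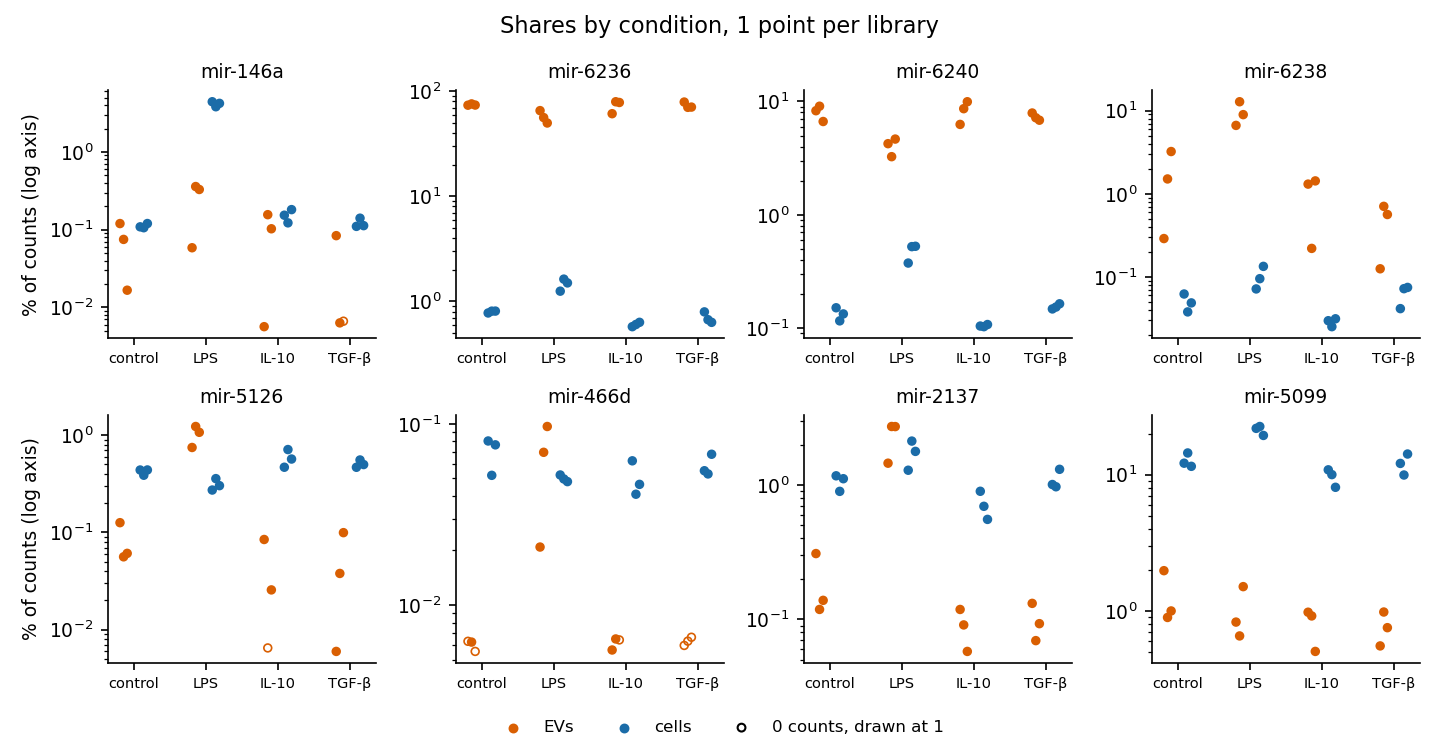
Shares of 8 precursors (y axes, % of counts, log, a scale per panel) in EV (orange) and cell (blue) libraries of 4 conditions (x axis), 1 point per library, with 0 counts drawn open at the share of 1 count. After LPS mir-146a was higher in cells than in EVs by more than in the other conditions, and mir-5126 was higher in EVs than in cells.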

How the data were processed

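Small RNA libraries of BV2 cells and their EVs, made with the SMARTer smRNA-seq kit per the labels, were used as the authors deposited them, as whole-number read counts per microRNA precursor, not normalized. Per the submitters' processing notes DESeq2 was used by them, without a version; no source used here gives the aligner, the annotation or the build. The series has 8 deposited tables, and 2 that repeat another were set aside. Library numbers are those of the column names.

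All 24 libraries in 8 groups entered 1 fit in edgeR 4.0.16 (R 4.3.3, limma 3.58.1) with TMM factors, filterByExpr with a minimum count of 10, 16 residual degrees of freedom and two-sided quasi-likelihood F tests. The p-values were adjusted by the Benjamini-Hochberg method across 280 precursors and called under 0.05. SE comes from the F statistic. DESeq2 1.42.0 gave alternative size factors and a Wald test. Matched-depth numbers are exact hypergeometric expectations. Shares are percent of a library's counts and are not scaled for length. The procedure was tested on simulated data whose changes were balanced in direction and far smaller than that of mir-6236 between EVs and cells. That test does not bear on the choice of scaling. Replicate libraries differed by more than counting noise (chi-square over degrees of freedom 7.51 to 15.7), so no library was a copy.

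Precursors named are in each direction the 12 called precursors of smallest p whose normalised CPM lay apart, the 8 with the highest share in each compartment, 21 fixed names, up to 4 tested members of each of 22 lists, 5 per direction, by p, for each difference of differences, and the 5 most counted in 1 compartment alone. Members and lists were chosen with earlier results of these data known.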

Additional observations from a re-analysis of the deposited data

Results flagged for a closer look

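By a test of the difference itself (edgeR adjusted p under 0.05), the EV-minus-cell difference after LPS departed from that of other conditions for those below. They are the 5 of smallest p in each direction, out of 17 called against controls and 66 against the mean of the other 3 conditions. mir-146a was also called in both tests and is not among them. Values are log2 differences of differences. Against controls, it was lower after LPS for mir-5100 (-5.12), mir-342 (-4.77), mir-6240 (-3.78), mir-6236 (-2.13) and mir-5099 (-2.12). It was higher for mir-466h (10.38), mir-466d (4.47), mir-5126 (3.21), mir-93 (2.38) and mir-2137 (1.99). Against the mean of the other 3 conditions, it was lower for mir-1931 (-4.52), mir-6240 (-3.97), mir-1983 (-3.16), mir-6236 (-2.48) and mir-5099 (-1.91). It was higher for mir-466h (8.01), mir-466d (6.17), mir-5126 (4.04), mir-93 (2.55) and mir-2137 (2.37). mir-466h had 0 counts in every control and TGF-β EV library, and mir-466d in every TGF-β EV library with 0, 1 and 0 in control EVs, so both values of mir-466h and the value of mir-466d against the mean depend on the count that edgeR adds, and they are neither sizes nor bounds. mir-342 had 1, 4 and 6 counts in control EVs and 2, 0 and 1 in LPS EVs, and mir-5100 had 77, 5 and 10 and 4, 0 and 4, so both rest on few counts. In IL-10 EVs mir-342 had 0, 0 and 0 counts, with a mean of 0.0162% of IL-10 cells against 0.0161% of LPS cells. Low EV counts beside such a cell share were thus not particular to LPS. In TGF-β EVs it had 0, 0 and 5 counts, with 0.00534% of TGF-β cells. mir-1931 had 2, 5 and 1 counts in LPS EVs and 21, 13 and 3 in IL-10 EVs, and its call was lost with thinned cell libraries (-3.40, adjusted p = 0.312). mir-1983 had 83 counts in IL-10 EV library 1 and 3 and 1 in IL-10 EV libraries 2 and 3. Against controls mir-5099, mir-2137 and mir-93 were not called under all 3 scalings, nor was mir-5099 against the mean.
Single libraries decided some calls against controls. Without control EV library 1 mir-5100 was at -2.78 (adjusted p = 0.131) and mir-5099 at -1.38 (adjusted p = 0.0762), and without control EV library 3 mir-342 was at -4.04 (adjusted p = 0.0502). The call of mir-466h was lost without LPS cell library 3, control cell library 1 or control cell library 3 (adjusted p = 0.0571 to 0.0756), mir-2137 was at 1.56 to 1.65 (adjusted p = 0.0844 to 0.115) where its call was lost, and mir-93 at 1.74 to 2.42 (adjusted p = 0.0506 to 0.122).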

How the results depend on the processing

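The 86 precursors called between LPS EVs and LPS cells became 152 with library totals alone (34 higher, 118 lower), 41 with a mean of at least 50 counts, where fewer were tested, 39 with cell libraries thinned to the mean EV depth and 44 with the column number as a replicate block. DESeq2's size factors gave 86 (70 higher, 16 lower), its Wald test 108 (83 and 25), no filter 127 (84 and 43), a table without mir-6236 and mir-6240 114 (65 and 49), and one also without mir-6238 and mir-664 91 (82 and 9). Leaving out 1 library gave 55 to 84, fewest without LPS cell library 1 and 58 without LPS cell library 2. The 17 calls against controls became 63 with library totals, 34 without a filter, 44 with the Wald test, 30 without mir-6236 and mir-6240, 28 with 1 copy per numbered set, 6 with thinned cells and 7 with the replicate block. Leaving out 1 library gave 13 to 32, with 32 without LPS EV library 1, 31 without LPS EV library 2 and 29 without control EV library 3. The 66 against the mean became 116, 27, 22 and 22 with library totals, a mean of 50 counts, thinned cells and the block, and 32 to 79 with a library left out, with 32 without LPS EV library 3 or LPS cell library 3. With DESeq2's size factors they became 45 (15 higher, 30 lower) and with its Wald test 81 (24 and 57). Without mir-6236 and mir-6240 the EV-minus-cell share of counts moved from -28.6 to -13.1 percentage points for let-7, from 60.9 to 4.75 for the structural list, from -5.82 to -5.21 for the inflammatory list and from -20.2 to -19.1 for mir-5099, which ranged from -21.2 to -19.6 with a library left out. The detection difference reversed without these 2 precursors, from -34.1 to 8.84 at 5 counts and from -0.332 to 31.7 at 1 count. With library totals the log2 difference between LPS EVs and cells reversed to -0.084 for mir-29a and -0.23 for mir-93. The causes were not tested. Equal column numbers in EVs and cells of the LPS condition correlated by 0.0502, 0.0263 and 0.0326 in their deviations from the group means, each under 0.1. Each LPS EV library correlated best with its own number, a hint from the data and not the design. Low counts in EVs can keep such values small, so whether equal numbers mark the same culture cannot be told from them. Leaving out all 4 precursors, leaving out control libraries, and 1 copy per numbered set were chosen after seeing the data. An EV library's depth limits precursors whose cell share is below about 0.0104%.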
